A study of Sus scrofa with 24 samples.

Results

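Complement genes were followed in the hippocampus of 24 piglets. The set was named by symbol and held 10 genes: C1QA, C1QB, C1QC, C1R, C1S, C3, C3AR1, C5AR1, SERPING1 and CD59. Of these, 9 matched an Entrez identifier among the 38882 genes listed in the count files, and all 9 passed the filter on low counts. C1S was not analysed here. RNA was sequenced from whole hippocampus at postnatal day 14, in a design of 4 groups with 6 piglets each, named by size and formula as AGA CON, SGA CON, AGA HF and SGA HF. AGA piglets were of appropriate size at birth and SGA piglets were small for gestational age, and all were of the same PIC Camborough by PIC 359 cross. CON piglets received a formula with its fat as triglycerides. HF piglets received a hydrolyzed fat formula that also held soy free fatty acids, a monoacylglycerol of palmitate, cholesterol and soy lecithin. Each SGA piglet had a sex-matched AGA littermate on the same formula, which gave 12 litters, 6 on each diet and 6 in each of 2 cohorts of piglets. Small size at birth was not induced by surgery or by diet, and the litter, not the piglet, was the unit that received a formula.

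Complement is a cascade of plasma and tissue proteins that marks targets for removal. C1q, built from the products of C1QA, C1QB and C1QC, recognises the target and activates the proteases C1r and C1s. Their action leads to cleavage of C3, and the fragments of C3 and C5 either coat the target or signal through C3AR1 and C5AR1, while SERPING1 and CD59 hold the cascade in check. In the developing brain C1q and C3 are known to tag synapses that microglia, the resident phagocytes, then engulf, and microglia are the main source of C1q there.

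The 3 C1q genes lie side by side on the plus strand of chromosome 6 in the Sscrofa10.2 coordinates of the files. C1QA (Entrez 445461) spans 74610025 to 74612855, C1QC (445460) spans 74616498 to 74621232 and C1QB (100518846) spans 74625450 to 74629848, each with 3 exons. C5AR1 (100048955) lies on the same chromosome at 48523114 to 48537524. C3 (397072), with 47 exons between 72762013 and 72957968, SERPING1 (100144304), at 12957676 to 12972291, and CD59 (397347), at 29777121 to 29797735, are on chromosome 2. C1R (445464) and C3AR1 (100625728) sit on unplaced scaffolds. No exon of these 9 genes overlapped an exon of another listed gene, so 0 overlaps could divide their reads.

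Library totals ranged from 6017336 to 9284355 reads on listed genes, and at these totals 3 reads equal 0.323 to 0.499 CPM. CPM values are read counts scaled to library size, which the TMM method corrects for composition. Markers of neurons, astrocytes, oligodendrocytes and microglia were read in every library. Of the 8 hippocampal genes listed, 7 were in the files, and their summed level ranged from 449 to 803 CPM. The lowest sums of neuron markers were 4044 CPM in AGA CON replicate 2 and 4987 CPM in AGA HF replicate 4, against 7375 to 9794 CPM in the SGA CON group. Both libraries had the highest astrocyte marker sums, 14158 and 13994 CPM, and the highest microglia marker sums, 692 and 598 CPM. In whole tissue, fewer cells of a type and less RNA per cell cannot be told apart. Results are given below with and without these libraries.

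Per kilobase of exon, the 9 genes fell into separate tiers. SERPING1, which codes for the C1 inhibitor, had a median of 55.6 RPKM, reads per kilobase of exon scaled to library size, C1QA of 55.2 and C1QC of 54.1. These 3 levels did not separate, since SERPING1 was above C1QA in 12 of 24 libraries and C1QA was above C1QC in 16. CD59, a membrane protein that blocks the final lytic pore, followed at a median of 23 RPKM, below C1QC in all 24 libraries. C3, the central component, and C1R, a protease of the C1 complex, had medians of 10.3 and 9.93 RPKM, with C3 higher in only 14 libraries. The receptors were lower, at 3.81 RPKM for C5AR1 and 1.73 RPKM for C3AR1, and these were ordered the same way in all 24 libraries. C1QB was lowest, with a median of 1.25 RPKM. The libraries were made from polyA-selected RNA, and the paper puts its average RNA quality number down to pre-spliced RNA. How RNA quality bears on levels between genes was not tested.

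**Figure D1:**
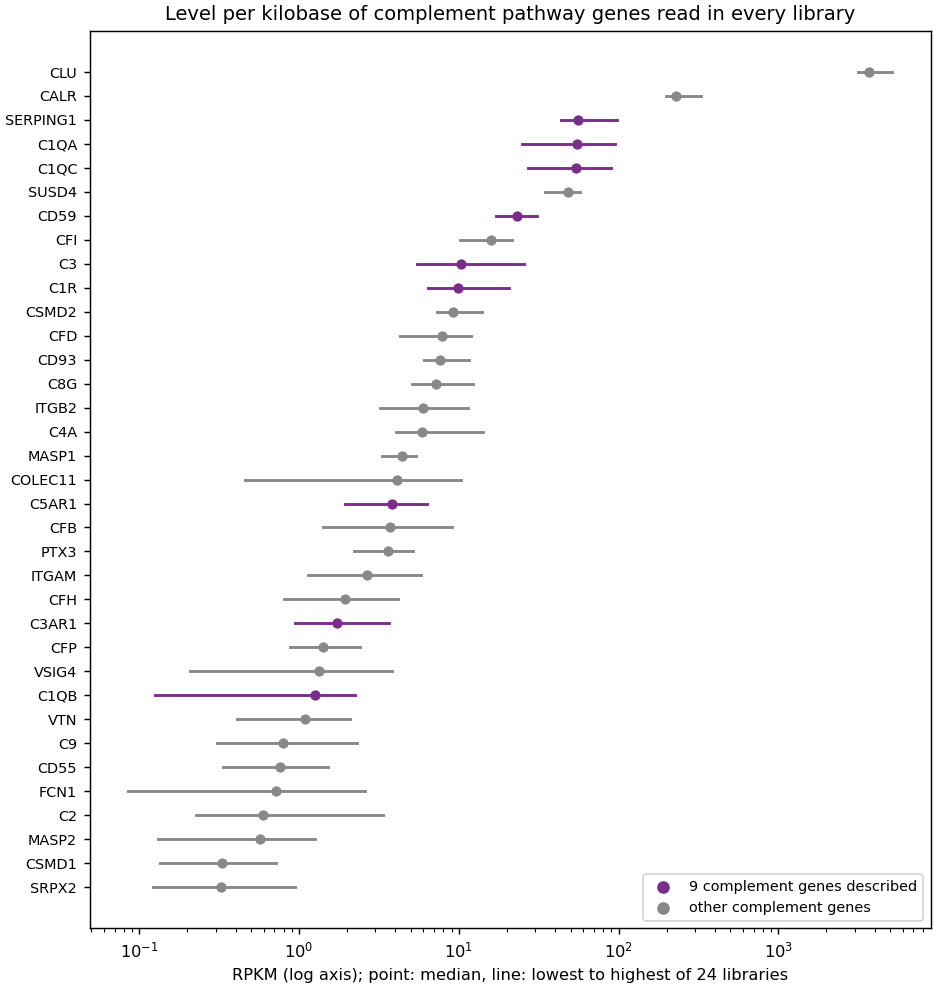
Level in RPKM (log axis) of complement pathway genes that had at least 1 read in each of the 24 libraries. Points are medians, lines run from the lowest to the highest library, and purple marks the 9 genes described. SERPING1, C1QA and C1QC share a level near 55 RPKM, while C1QB, the third C1q chain, sits near 1.25 RPKM.

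The gap between the C1q chains was large. C1QB had 1 to 20 reads per library, whereas C1QA had 167 to 602 and C1QC 242 to 874. The ratio of C1QC to C1QB in RPKM had a median of 42.9 and ranged from 22.5 to 217. The ratio of C1QA to C1QC was close to level in every group, with a median of 1.03 and a range of 0.765 to 1.5. C1q protein holds the A, B and C chains in equal number. What lowered the count of C1QB was not tested. In single libraries C1QB was near the level of 3 reads, so its differences carry the largest errors of the 9 genes.

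C1QA, the A chain of C1q, ranged from 29.8 to 62.1 CPM in AGA CON piglets (median 50.2) and from 28.3 to 74.8 CPM in AGA HF piglets (median 41.4). The SGA CON range was 21 to 80.4 CPM (median 54.3) and the SGA HF range 23.2 to 61.3 CPM (median 46). The 4 groups overlapped over most of their range, and SGA CON held both the lowest and the highest library. C1QC, the C chain, gave the same picture, with medians of 62.7 CPM in AGA CON, 58 in AGA HF, 67.4 in SGA CON and 61.9 in SGA HF, within an overall range of 31.2 to 103 CPM. C1QB had group medians of 1.03 to 1.63 CPM within an overall range of 0.129 to 2.32 CPM.

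C1R ranged from 15.3 to 44.8 CPM in AGA CON (median 19.3) and from 19.1 to 32.9 CPM in AGA HF (median 22.3). It ranged from 16.8 to 48.9 CPM in SGA CON (median 25.4) and from 19.3 to 37.8 CPM in SGA HF (median 25.2). Both SGA medians lay above both AGA medians, but the ranges overlapped. The highest values came from CON piglets of cohort 1, with 48.9 and 43.5 CPM in SGA CON replicates 3 and 2 and 44.8 CPM in AGA CON replicate 2.

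C3, whose cleavage is the step at which all activation routes meet, ranged from 22.7 to 98 CPM in AGA CON (median 46.2) and from 24.2 to 68.8 CPM in AGA HF (median 43.2). In SGA CON it ranged from 25.4 to 107 CPM (median 43.1), and in SGA HF from 25.2 to 58.6 CPM (median 40). One library in each CON group stood apart, and the other CON libraries stayed at or below 56.1 CPM. C3AR1, the receptor for the C3a fragment, had medians of 5.91 CPM in AGA CON, 6.48 in AGA HF, 8.56 in SGA CON and 6.66 in SGA HF, within an overall range of 3.54 to 13.8 CPM. C5AR1, the receptor for the C5a fragment, had medians of 9.72, 7.8, 12.4 and 8.33 CPM in the same order, within 4.85 to 15.9 CPM. The receptor medians were highest in SGA CON, and neither receptor separated any of the groups.

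SERPING1 ranged from 81.4 to 132 CPM in AGA CON (median 97.1), from 80.7 to 109 CPM in AGA HF (median 101), from 86.7 to 180 CPM in SGA CON (median 105) and from 87.1 to 120 CPM in SGA HF (median 106). CD59 was the steadiest of the 9, with a coefficient of variation of 13.3% over 24 libraries against 21% for SERPING1 and 31.2 to 48.1% for the other 7. Its group medians lay between 41.1 and 43.5 CPM. The spread of several genes was wider on CON than on HF. For C1R the SD was 12 CPM over the 12 CON libraries and 5.46 CPM over the 12 HF libraries, and for SERPING1 it was 29.8 and 10.5 CPM. Single libraries carried part of this spread. Without AGA CON replicate 2 the AGA CON SD of C1R was 3.69 CPM against 10.9, and without SGA CON replicate 3 the SGA CON SD of SERPING1 was 24 CPM against 37.

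**Figure D2:**
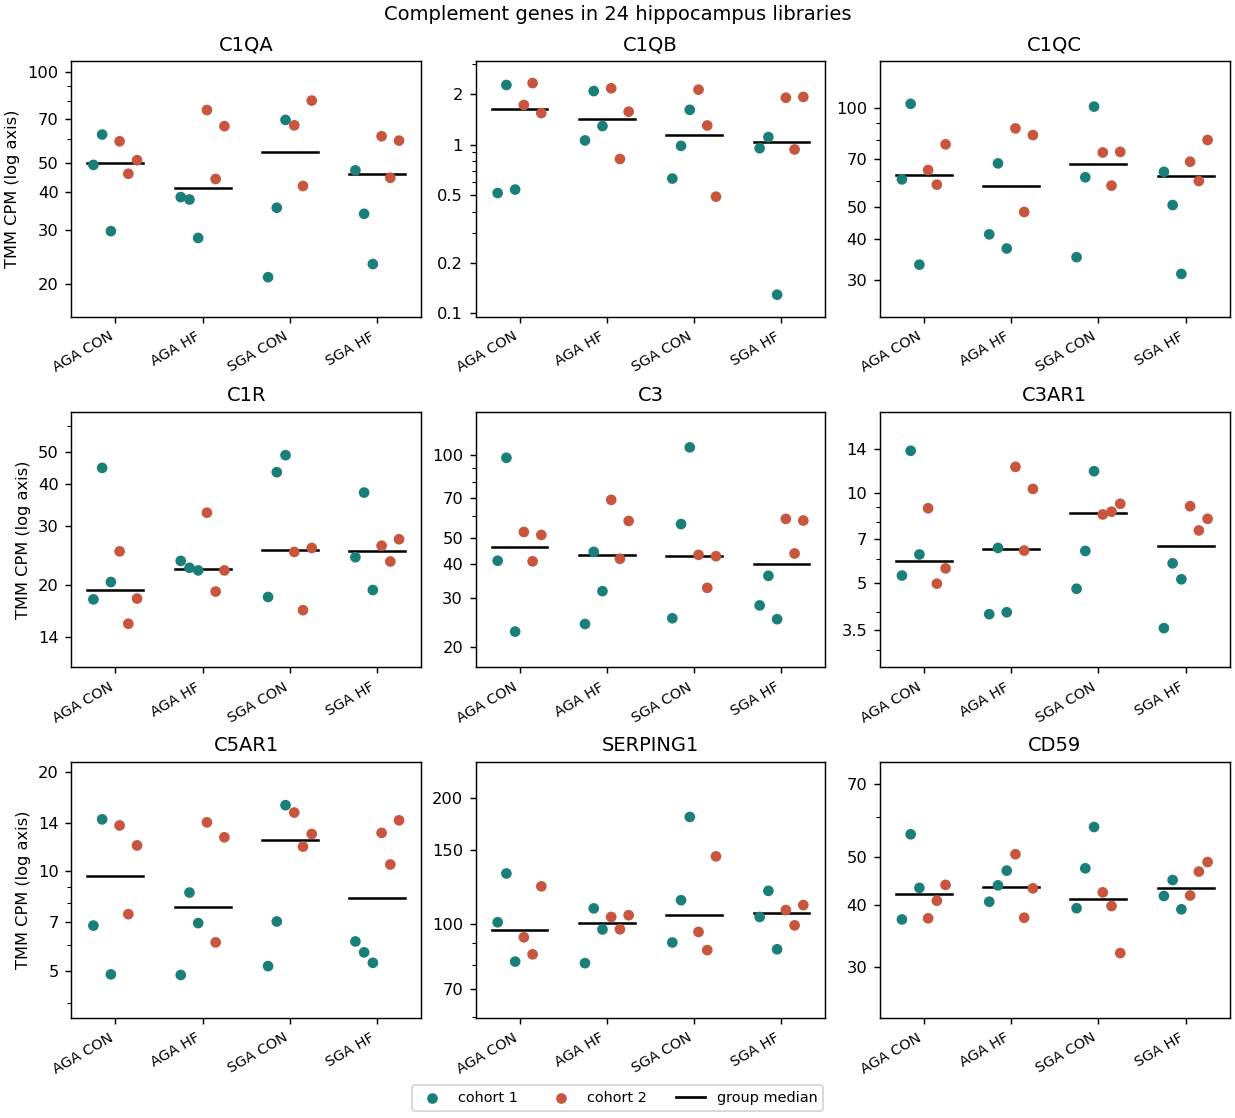
TMM CPM (log axis, with its own range in each panel) of the 9 complement genes in each of the 24 libraries by group, coloured by cohort, with the group median as a bar. The groups overlap for every gene, and a single library of cohort 1 lies at the top of each CON group for C3, near 98 and 107 CPM.

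The first question of the design was whether SGA piglets differed from AGA piglets. Differences were tested with edgeR's quasi-likelihood test on all 16326 genes that passed the filter, with sex and 5 surrogate variables in the fit. Genes were called DEGs at an FDR under 0.4, computed over all 7 contrasts together. None of the 9 complement genes was a DEG for size, where 0.478% of all genes tested were called. None had an unadjusted p under 0.05, a level that 10.6% of all genes reached. DESeq2 and limma voom also called 0 of the 9, and at an unadjusted p under 0.05 they held 0 and 1.

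By size, 6 of the 9 log2 fold changes (SGA minus AGA) were positive, with a median of 0.06 against 0.00 for all genes. The smallest p belonged to C1R, at a log2 fold change of 0.20 ± 0.10 (SE, n = 12 per size; edgeR p = 0.062, FDR = 0.755). The 95% interval of the estimate ran from 0.00 to 0.40 for C1R, from -0.37 to 0.14 for C1QA, from -0.27 to 0.22 for C1QC and from -0.25 to 0.31 for C3. For CD59 it was narrower, from -0.04 to 0.17. For C1QB it was wide, from -0.95 to 0.20, so that a sizeable decrease in SGA piglets could not be told from no difference at its depth.

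Littermates were then compared directly. SERPING1 was higher in the SGA piglet in 9 of 12 pairs, by a mean of 0.13 on the log2 scale (SD 0.36; exact sign-flip test, two-sided p = 0.231, FDR = 0.661 over all genes). C1R was higher in 8 of 12 pairs, by 0.23 (SD 0.43; exact p = 0.0977, FDR = 0.497). C5AR1 and CD59 were each higher in 7 of 12 pairs, C1QA, C1QB and C3AR1 in 5 and C1QC and C3 in 4. The FDR over all genes exceeded 0.4 for each of the 9, while 12.7% of all genes lay under it in this test. None of the 9 had an exact p under 0.05, against 12.6% of all genes. In cohort 1 SERPING1 was higher in the SGA piglet in 3 of 6 pairs, by 0.19 on average. In cohort 2 it was higher in all 6, by 0.08, with differences from 0.03 to 0.24. How many of all genes had 6 such pairs was not computed.

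The pairs did not move alike. In litter 6 the SGA piglet was higher for all 9 genes, with a median difference of 1.22 log2 units and a difference of 2.22 for C3. In litter 4 the AGA piglet was higher for all 9, with a median difference of -0.80 and of -1.08 for C3AR1. Both litters were on CON in cohort 1, and they pulled the size comparison in opposite directions. In litter 9, on HF in cohort 2, the SGA piglet was also higher for all 9, but by a median of only 0.22. The medians of the remaining 9 litters lay between -0.27 and 0.22.

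**Figure D3:**
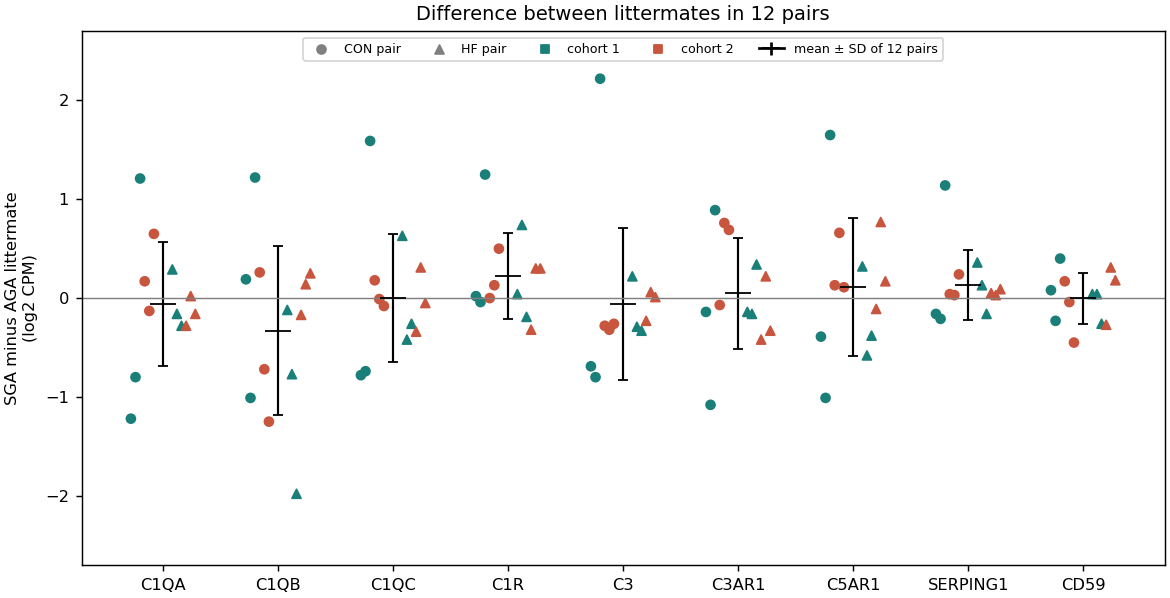
SGA minus AGA difference in log2 CPM within each of the 12 littermate pairs for the 9 complement genes, with circles for CON pairs, triangles for HF pairs, colours for cohorts and black bars for the mean ± SD. The means lie between -0.33 for C1QB and 0.23 for C1R, and for C3 a single CON pair reaches 2.22.

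The second question was whether the HF formula changed these genes. None of the 9 was a DEG for diet, against 0.159% of all genes, and none had an unadjusted p under 0.05 in edgeR, DESeq2 or limma voom, a level that 7.1% of all genes reached in edgeR. The largest log2 fold change (HF minus CON) was 0.23 ± 0.28 (SE) for C1QB (edgeR, FDR = 0.922), and that of C3 was 0.00 ± 0.14 (FDR = 1). The sign of the diet estimates depended on the fit. It was positive for 7 of 9 genes with the surrogate variables for 1 of 9 with cohort in their place and for 2 of 9 without AGA CON replicate 2. The surrogate variables held 53.4 to 76.1% of the variance of these genes over the libraries, against a median of 43.7% for all genes.

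By litter means, without any model, HF minus CON ranged from -0.23 log2 units for C5AR1 to 0.04 for CD59, and the litters of the 2 diets overlapped for all 9 genes. The exact permutation p of 6 against 6 litters was 0.422 or higher for each, and every FDR over all genes was 1. No gene of the 16326 passed in this test, in which the smallest possible p is 0.00216 and 4.09% of genes had an unadjusted p under 0.05.

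Within cohorts the diet difference of some genes went in opposite directions. In cohort 1, with 3 litters per diet, C3 was 0.66 log2 units lower on HF, at a mean of 31.8 CPM against 52.2 CPM on CON. In cohort 2 it was 0.31 higher on HF, at 54.9 against 44 CPM. C3AR1 differed by -0.62 and 0.23 in the same comparison, and C1R by -0.27 and 0.27. The litters of the 2 diets overlapped in each of these cases, and with 3 litters against 3 no exact test can reach 0.05. CD59 in cohort 2 was the one gene and cohort without overlap, at 0.18 log2 units higher on HF, and 4.73% of all genes were higher on HF without overlap there. Litters 4 and 6 supplied 2 of the 3 CON litters of cohort 1.

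The third question was whether the size difference depended on the formula. None of the 9 genes was a DEG for the interaction, against 0.049% of all genes. C5AR1 alone had an unadjusted p under 0.05, with an interaction of -0.62 ± 0.27 (SE; edgeR, FDR = 0.689), and 4.01% of all genes reached that level. DESeq2 and limma voom also held 1 such gene and called 0. The interaction was negative for all 9 genes, with a median of -0.29, whereas the median of all genes was 0.00. These genes vary together over the libraries, so the 9 signs are not separate observations. The median was -0.16 with cohort in place of the surrogate variables and -0.14 without SGA CON replicate 3. Over littermate differences, without a model, it was -0.10, no gene had an exact p under 0.05 among the 9 against 4.36% of all genes, and every FDR was 0.99 or above.

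In the pairwise comparisons 0 of the 9 genes passed either. For SGA against AGA on CON, where 0.129% of all genes were called, all 9 fitted estimates were positive. The plain littermate differences did not all share that sign. Their mean over the 6 CON pairs was -0.02 for C1QA, -0.22 for C1QB, -0.02 for C3 and -0.01 for CD59. It was positive for C1QC, C1R, C3AR1, C5AR1 and SERPING1, at 0.03 to 0.31. C3 was higher in the SGA piglet in only 1 of these pairs. C5AR1 differed by 0.47 ± 0.19 (SE; edgeR, FDR = 0.666) and C1R by 0.35 ± 0.14 (FDR = 0.653). Both were short of the threshold, as the only 2 of the 9 with an unadjusted p under 0.05, and 6.59% of all genes had one. For SGA against AGA on HF, where 0.288% of all genes were called, 3 of 9 estimates were positive and none had an unadjusted p under 0.05, against 8.02% of all genes. For HF against CON all 9 fitted estimates were positive in AGA piglets, where 0.0674% of genes were called, and all 9 negative in SGA piglets, where 0.0919% were called. The plain group means did not share the sign in AGA piglets. The AGA HF mean was below the AGA CON mean for C1QA, C1QC, C3, C3AR1, C5AR1 and SERPING1, for example 44.8 against 51.1 CPM for C3 and 60.6 against 66.2 CPM for C1QC. None of the 9 had an unadjusted p under 0.05 in edgeR, against 6.09% of all genes in AGA and 5.16% in SGA piglets. These comparisons share groups, and the smallest FDR of the 9 genes in any of their 63 tests was 0.653. DESeq2 and limma voom called 0 of the 9 in each pairwise comparison, with 2 each at an unadjusted p under 0.05 on CON and 1 by limma voom for HF against CON in SGA piglets.

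A pair of CON libraries held the highest values of most of these genes: SGA CON replicate 3, the piglet of litter 6, and AGA CON replicate 2, the piglet of litter 4. Each was among the 3 highest of the 24 libraries for 8 of the 9 genes. SGA CON replicate 3 ranked first for C1R, C3, C5AR1, SERPING1 and CD59, with 180 CPM of SERPING1 against 81.4 CPM in its AGA littermate. AGA CON replicate 2 ranked first for C1QC and C3AR1 and second for C3, at 98 CPM, against 56.1 CPM in its SGA littermate. Their marker sums differed. AGA CON replicate 2 was highest of 24 for the microglia list (692 CPM), the interferon response list (554 CPM) and the endothelium list (296 CPM). SGA CON replicate 3 was 4th for microglia (510 CPM), 10th for interferon response (202 CPM) and 2nd for choroid plexus (124 CPM). Whether either marker level accounts for the complement values was not tested. Leaving out 1 or both of these libraries left 0 of the 9 genes called in every contrast.

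The cohorts of piglets differed for some of these genes. C5AR1 was higher in cohort 2 by 0.70 log2 units, or 1.62 times, over 6 against 6 litter means (exact permutation test, two-sided p = 0.0108, FDR = 0.263 over all genes). C1QA was higher by 0.60, or 1.52 times (exact p = 0.0152, FDR = 0.286). These 2 of 9 passed an FDR of 0.4, while 12.5% of all genes passed and 6.39% did so with the higher level in cohort 2. C1QA ranged from 21 to 69.4 CPM (median 36.7) in the 12 libraries of cohort 1 and from 42 to 80.4 CPM (median 59.1) in cohort 2. C5AR1 ranged from 4.85 to 15.9 CPM (median 6.49) and from 6.09 to 15.1 CPM (median 12.8). The ranges overlapped for both genes, and the medians stood well apart.

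The other genes did not pass in this comparison. C1QB, C1QC, C3 and C3AR1 were higher in cohort 2 by 0.31 to 0.51 log2 units (exact tests, FDR = 0.455 to 0.656). C1R (-0.24), SERPING1 (-0.03) and CD59 (-0.09) had small differences of the opposite sign. Litters 4 and 6, which hold the 2 high CON libraries, belong to cohort 1. Without them, the differences were 0.90 for C5AR1, 0.75 for C1QA, 0.72 for C3AR1, 0.62 for C3 and 0.55 for C1QC, and these 5 genes had an FDR between 0.281 and 0.358, against 4.06% of all genes called higher in cohort 2. These litters were chosen for their high complement values in cohort 1, so this larger count is in part set by the choice. Without litters 4 and 7, which hold the libraries low in neuron markers, C5AR1 (0.76, exact test, FDR = 0.328) and C1QA (0.62, FDR = 0.361) again passed, against 4.34% of all genes called higher in cohort 2.

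Microglia markers moved with the cohort as well. Of the 17 microglia markers tested, 8 were higher and 2 lower in cohort 2 at an FDR under 0.4, and their summed level had a median of 345 CPM in cohort 1 (286 to 692) and 470 CPM in cohort 2 (390 to 598). All 11 interferon response genes tested were lower in cohort 2, 5 of them at that threshold, and all 8 oligodendrocyte markers were higher, 5 of them at that threshold. The part of any of these lists in the complement difference was not tested. Cohort 2 held 4 female and 2 male litters and cohort 1 the reverse. Within female litters the cohort difference was 0.49 for C1QA and 0.48 for C5AR1, and within male litters 0.61 and 0.78. The other 4 genes with a higher mean in cohort 2 showed little or none of it in female litters. The values there were -0.20 for C1QB, -0.17 for C3, 0.02 for C1QC and 0.05 for C3AR1, against 0.52 to 1.09 in male litters. The female litters of cohort 1 were litters 3 and 4, and litter 4 holds a high CON library. Its mean was 6.22 log2 CPM against 5.34 in litter 3 for C3, and 0.83 against 0.84 for C1QB. With 2 to 4 litters a side these differences within a sex were not tested. Between the sexes, all 9 genes were lower in males by 0.01 to 0.43 log2 units over litter means, with exact permutation p from 0.0671 to 0.892 and every FDR at 0.933 or above. None of the 9 had a p under 0.05 for sex, against 5.08% of all genes.

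**Figure D4:**
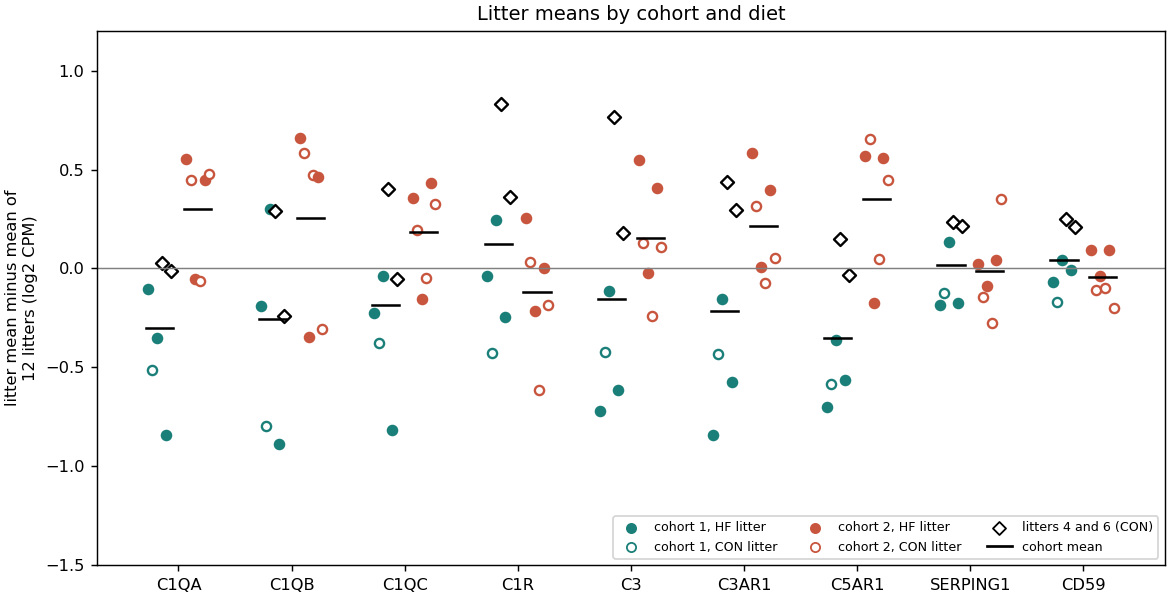
Mean log2 CPM of each litter minus the mean of the 12 litters for the 9 complement genes, with filled symbols for HF litters, open symbols for CON litters and black bars for cohort means. Cohort 2 lies above cohort 1 by 0.70 log2 units for C5AR1 and 0.60 for C1QA, and the black diamonds, litters 4 and 6, lie at the top of cohort 1 for C3 and C3AR1.

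The 9 genes rose and fell together over the 24 libraries to different degrees. Pearson's r of log2 CPM had a median of 0.60 over the 36 pairs of genes, and all 36 were positive. The tightest block was C1QA, C1QC, C3, C3AR1 and C5AR1, with r from 0.70 to 0.88. C1QA with C1QC and C1QC with C3 had the highest r, at 0.88 each. C1R went most with SERPING1 (0.69), CD59 (0.67) and C3 (0.65), and only weakly with C1QA (0.35). CD59 with C1QA was lowest, at 0.14. C1QB, with its few reads, had r from 0.21 to 0.67. These values describe 24 libraries that share litters, cohorts and marker levels, and no test was attached to them.

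C1QA, C1QC and the mean of the C1q chains followed the microglia markers. The mean log2 CPM of C1QA, C1QB and C1QC correlated with the mean of 17 microglia markers at r = 0.78 (permutation p = 2.00e-05) and rho = 0.86 (permutation p = 1.00e-05, the smallest 100000 resamples can give) over 24 libraries. The adjusted p over the 3 relations computed was 3.00e-05 for r. Permutation treated the 24 libraries as separate, though they share litters and cohorts, so these p-values may be too small. Without the 2 libraries farthest from the median of the markers r was 0.80, and within cohorts it was 0.71 and 0.74. With C1QA and C1QC only, r was 0.80. Taken singly, C1QA had r of 0.74 with the same markers, C1QC 0.82 and C1QB 0.57. C3, C3AR1 and C5AR1 had r of 0.85, 0.81 and 0.86, whereas SERPING1 had 0.57, C1R 0.52 and CD59 0.45. CD59 went instead with the endothelium (0.64) and astrocyte (0.59) markers, and C1R with the interferon response list (0.63).

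**Figure D5:**
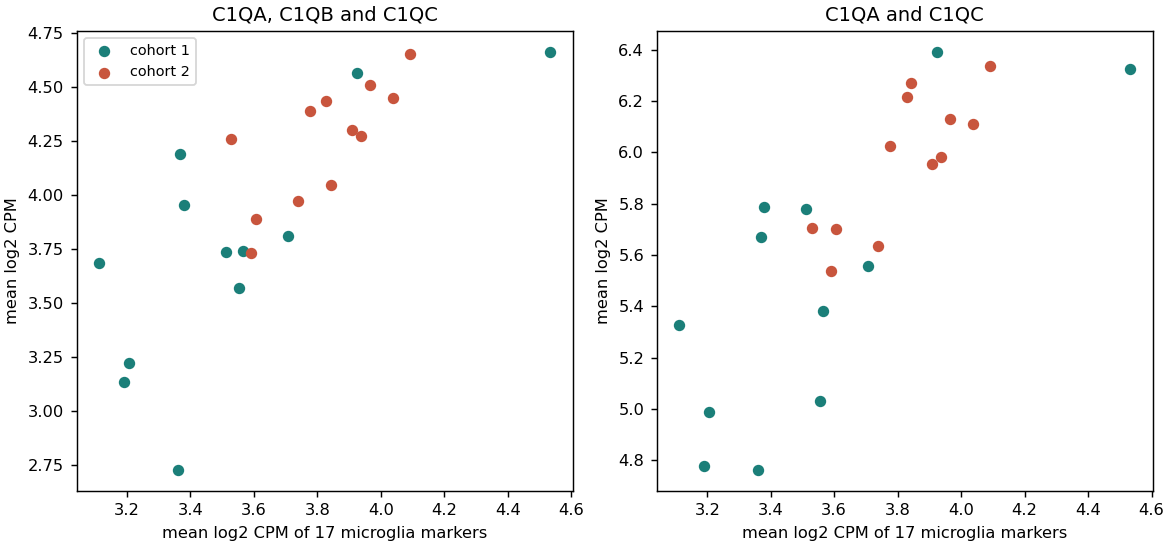
Mean log2 CPM of the C1q genes (left, all 3 chains; right, C1QA and C1QC) against the mean log2 CPM of 17 microglia markers in 24 libraries, coloured by cohort. The points rise together in both cohorts, with r = 0.78 on the left and 0.80 on the right, and the cohort 2 points gather toward the upper right.

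The mean of C1R and SERPING1 was set against meningeal fibroblast markers, since fibroblasts are a known source of both. The relation was weaker, at r = 0.36 (permutation p = 0.0848) and rho = 0.43 (permutation p = 0.038), and r was 0.42 without the 2 libraries farthest from the median. Within cohorts r was 0.34 and 0.64. After adjustment over the 3 relations, p was 0.0848 for r and 0.038 for rho. The same limit of shared litters and cohorts applies to these p-values. Taken singly, C1R had r of 0.37 with the meningeal markers and SERPING1 0.27, lower than C1QA (0.52), C1QC (0.40) and C3AR1 (0.38). C1R had r of 0.59 with the endothelium markers, and SERPING1 had 0.46 with the choroid plexus markers.

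Among all other genes with a symbol, those whose pattern was most like the C1q mean over the 24 libraries were TYROBP (r = 0.88), CD53 (0.88), ICOSLG (0.87), DAPP1 (0.86) and ITGB2 (0.86). TYROBP is a signalling adaptor of microglial receptors, and ITGB2 is the beta chain of complement receptor 3. TYROBP is also in the microglia list. Without C1QB in the mean, the 5 were ALOX5AP, ITGB2, TYROBP, CX3CR1 and FOLR1, with r from 0.84 to 0.88. CX3CR1 is in the microglia list and FOLR1 in the choroid plexus list. The genes most like the mean of C1R and SERPING1 were C2 (r = 0.90), SLA-DOA and IFI30 (0.85 each), PTPRCAP (0.84) and CTSS (0.83). C2 is the protease that the C1 complex cleaves together with C4. It ranged from 0.645 to 9.45 CPM around a median of 1.68.

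Of 47 other genes of the cascade, its receptors and its regulators, 44 were in the files and 27 passed the filter. Clusterin (CLU), a secreted chaperone and inhibitor of the lytic complex, was the most abundant, with a median of 3695 RPKM. Calreticulin (CALR), a chaperone that can bind C1q on cell surfaces, followed at 230 RPKM. The brain regulator SUSD4 (47.9 RPKM) and the protease CFI (16 RPKM), which inactivates C3b, were also well read, and C4A, the substrate of the C1 proteases, had 5.9 RPKM. Part of the lytic pathway was sparse. C6, C8B and C5 had at most 6 reads in any library, and C8A was at 0 in all 24, whereas C7, C8G and C9 passed the filter. COLEC12 and the lectin MBL2 were also at 0 in all 24 libraries.

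None of these 27 genes was a DEG in any of the 7 contrasts, and DESeq2 and limma voom called 0 as well. At an unadjusted edgeR p under 0.05 there were 2 of 27 for size, 3 for diet and 4 for the interaction, where 10.6%, 7.1% and 4.01% of all genes reached that level. For SGA against AGA there were 6 on CON and 0 on HF, against 6.59% and 8.02% of all genes. For HF against CON there were 2 in AGA and 5 in SGA piglets, against 6.09% and 5.16%. The smallest FDR of the 27 was that of CFP for HF against CON in SGA piglets (-0.61 ± 0.17, edgeR FDR = 0.428). For size the smallest p belonged to CD55, which speeds the decay of the C3 convertase, with a log2 fold change of 0.53 ± 0.22 (SE; edgeR, FDR = 0.678), and SUSD4 with 0.12 ± 0.06 (FDR = 0.73). CD55 was higher in the SGA littermate in 10 of 12 pairs, by 0.50 on average (exact sign-flip p = 0.0244, FDR = 0.311), from 5 to 27 reads per library. C8G, a chain of the lytic component C8, was lower in the SGA littermate in 8 of 12 pairs, by a mean difference of -0.20 (exact test, FDR = 0.375). These 2 of 27 passed an FDR of 0.4 in the littermate test, a smaller share than the 12.7% of all genes. For diet the smallest p belonged to CALR (-0.18 ± 0.06, edgeR FDR = 0.585) and the lectin pathway protease MASP2 (-0.89 ± 0.32, FDR = 0.586), the latter from 2 to 15 reads. For the interaction they belonged to ITGB2 (-0.64 ± 0.22, edgeR FDR = 0.585) and the lytic component C7 (-2.24 ± 0.88, FDR = 0.645), the latter from 0 to 26 reads.

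Partners of complement in the removal of synapses were read alongside, in a list of 18 genes of which 17 were tested. For size 14 of 17 estimates were positive, with a median of 0.12 log2 units against 0.00 for all genes, and 0 were DEGs in edgeR, with 5 at an unadjusted p under 0.05, a level that 10.6% of all genes reached. Cell type markers moved with size as well. Within littermate pairs all 7 neuron markers had a positive mean difference (median 0.11, 2 called higher) and all 8 oligodendrocyte markers a negative one (median -0.30, 5 called lower), and their part in these values was not tested. SIRPA, the phagocyte receptor for the protective signal CD47, lay next to the threshold at 0.27 ± 0.07 (SE; edgeR, FDR = 0.402). NPTXR, the neuronal pentraxin receptor, differed by 0.19 ± 0.05 (FDR = 0.465). DESeq2 gave both an FDR under the threshold, at 0.309 for SIRPA and 0.219 for NPTXR, and limma voom called 0. SIRPA also passed with RLE size factors (edgeR, FDR = 0.367) and without AGA CON replicate 2 (0.284), and NPTXR did so without any filter on low counts (0.398) and without AGA CON replicate 2 (0.216). Neither was called for size without SGA CON replicate 3 or with the replicate block on littermate pairs. With both AGA libraries low in neuron markers left out, no pruning partner was called in any contrast. In the littermate test CX3CL1, the neuronal ligand of the microglial receptor CX3CR1, was higher in the SGA piglet in 9 of 12 pairs by 0.20 (exact p = 0.00488, FDR = 0.192). NPTXR and GAS6, a ligand of the receptors AXL and MERTK, were also higher in 9 of 12 pairs, by 0.22 (exact test, FDR = 0.246) and 0.19 (FDR = 0.292). These 3 of 17 passed an FDR of 0.4 in the littermate test, in which 12.7% of all genes passed. For diet the smallest p belonged to NPTXR (-0.13 ± 0.05, edgeR FDR = 0.666) and NPTX2 (0.20 ± 0.09, FDR = 0.684). Without AGA CON replicate 2, a library left out after its values were seen, NPTXR was lower on HF by 0.21 on the log2 scale (edgeR, FDR = 0.118). NPTX1 was lower by 0.27 in that fit (FDR = 0.195). The share of all genes called with libraries left out, or with other tools and settings, is not given here. For the interaction the smallest p belonged to TYROBP (-0.32 ± 0.19, edgeR FDR = 0.796) and CX3CL1 (0.14 ± 0.09, FDR = 0.839).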

How the data were processed

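The authors trimmed reads with Trimmomatic 0.33, aligned them to Sscrofa10.2 with STAR 2.5.2a and counted them on exons with featureCounts (Subread 1.5.0). They deposited whole-number counts per Entrez gene, without normalization, for 24 libraries made with a stranded kit. From these counts an entry without an identifier (0.613 to 1.62% of reads) was left out. The genes with at least 1 CPM in 3 libraries, 16326 in all, were tested with edgeR 4.0.16 (glmQLFit, glmQLFTest; TMM recomputed after the filter) on the 4 groups, sex and 5 surrogate variables from sva 3.50.0 (log2 CPM, prior count 2), in R 4.3.3. The Benjamini-Hochberg FDR covered 7 contrasts together, at the study's heat map threshold of 0.4. The study's methods name limma voom, which was run here (limma 3.58.1) as an alternative, with DESeq2 1.42.0. Exact sign-flip tests used all 4096 sign patterns of 12 pairs, and exact permutation tests all 924 splits of 12 litters, for every gene tested. The script was checked on simulated counts. RPKM used the deposited exon lengths.

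Groups, litters, sex and cohorts came from the labels, so a number marks littermates within a diet. Their deviations from the group means correlated at 0.15 on average (0.01 to 0.33), above 0.1 in 9 of 12 pairs. No 2 libraries held identical counts. Each library is a separate piglet. Symbols were matched through a RefSeq table of Sscrofa11.1, for 23036 of 38882 identifiers. Floors in CPM cover counting error only. The 10 members, the other complement and pruning lists and the marker lists were chosen with earlier results of these data known. All members were named. Of the other lists, genes called in any contrast of the main fit and the 2 with the smallest p for size, diet and interaction were named, with the 5 genes most like each pattern, and C1S was left out of the second pattern. Genes named for their level, their littermate test or a pairwise comparison, and the libraries left out, were chosen after their values were seen.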

Additional observations from a re-analysis of the deposited data

Results flagged for a closer look

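In 3 of the 36 combinations of gene and group, 1 library stood apart from the other 5 by a gap over 0.625 of the group's range, Dixon's limit for 6 samples, which chance passes in about 1 of 20 groups. C1R reached 44.8 CPM in AGA CON replicate 2, where the other AGA CON libraries ranged from 15.3 to 25.2 CPM. CD59 reached 55.5 CPM in the same library, against 37.4 to 43.9 CPM. C1R reached 32.9 CPM in AGA HF replicate 4, against 19.1 to 23.6 CPM. These are the 2 libraries with the lowest neuron marker sums, 4044 and 4987 CPM, and the highest astrocyte marker sums, and the part of tissue composition in these values was not tested.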

How the results depend on the processing

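Of the 9 complement genes described, none was called in any contrast under any of the alternatives run, among them DESeq2, limma voom, RLE size factors, other filters, the fit without surrogate variables, the replicate block on littermate pairs, each cohort alone and a stricter FDR. The replicate block called 0 of the 9 genes and 0 of the other complement genes, and of the pruning partners it called CX3CL1 for size (edgeR, FDR = 0.319), which the main fit did not. Of the other complement genes, 1 (CD55) was called for size with the FDR taken within the contrast. Another 1 (CFP) was called for HF against CON in SGA piglets without AGA CON replicate 2, against 0 in the main fit for both. Of the pruning partners, SIRPA (edgeR, FDR = 0.152), NPTXR (0.201), ITGB5 (0.295) and CX3CL1 (0.375) were called for size with the FDR within the contrast. NPTXR was also called there for SGA against AGA on HF (0.306). Without AGA HF replicate 4, SIRPA and NPTXR were called for size (0.375 each), and without both high CON libraries NPTXR was (0.374). The share of all genes called under these settings is not given here, so these calls cannot be set against it.

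Signs of uncalled estimates changed in 51 of 441 comparisons with an alternative. The log2 fold change for diet became, in cohort 1 alone, -0.35 for C1QA, -0.08 for C1QB, -0.43 for C1QC, -0.33 for C1R, -0.22 for SERPING1 and -0.12 for CD59. In cohort 2 alone it was 0.24 for C3AR1. With cohort in place of surrogate variables it was -0.15 for C1QA, -0.01 for C1QB, -0.17 for C1QC, -0.03 for C1R and -0.11 for SERPING1. With no filter it was -0.02 for C1QA and -0.01 for SERPING1. Without AGA CON replicate 2 it was -0.04 for C1QA, -0.05 for C1QB and C1QC and -0.01 for SERPING1, and leaving out single libraries it ranged up to 0.11 for C1QA and 0.27 for C1QB. For size it was 0.06 for C1QC and -0.02 for C5AR1 in cohort 1 alone, and 0.04 for C1QA, -0.18 for C3 and -0.02 for CD59 in cohort 2 alone. It was 0.03 for C1QC with no filter, 0.01 for C1QC and -0.02 for C3 with cohort as a term, and -0.08 for C3 with the replicate block. It was 0.01 for C1QC and -0.01 for C3 without AGA CON replicate 2, and -0.07 for C3 without SGA CON replicate 3. Without both of these it was -0.10, and without AGA CON replicate 2 and AGA HF replicate 4 it was -0.05 for C3. The interaction was 0.12 for C1QA and 0.03 for C3AR1 in cohort 1 alone, and 0.56 for C1QB, 0.22 for C3 and 0.17 for CD59 in cohort 2 alone. It was 0.01 for CD59 with the replicate block and, for SERPING1, 0.03 without AGA CON replicate 2, 0.09 without SGA CON replicate 3 and 0.05 without both. The littermate difference was 0.05 for C3, -0.05 for C3AR1 and -0.06 for C5AR1 in cohort 1 alone and 0.04 for C1QA in cohort 2 alone. The diet difference of litter means was -0.11 for CD59 in cohort 1 alone. In cohort 2 alone it was 0.03 for C1QA, 0.05 for C1QC, 0.31 for C3, 0.23 for C3AR1 and 0.02 for SERPING1. The cause of these changes was not tested. Leaving out libraries and litters was chosen after seeing the data. C1QB, CD55, MASP2 and C7 had under 30 reads per library, which limits the precision of their values.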
